A study of Mus musculus with 120 samples.

Results

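Small RNA was sequenced from mouse testis after treatment with PNK 3 minus, a form of polynucleotide kinase, and from the same tissue without enzyme. The 8 libraries described here are 4 PNK 3 minus and 4 untreated testis libraries, of 120 samples in the whole study, and they were picked by their labels alone. Each group held 2 libraries labelled acid and 2 labelled base, numbered 1 and 2 within each; the labels do not say what acid and base stand for. All mice ate the control diet and were 8 to 12 weeks old, and RNA under 40 nt was cut from a gel before cloning. For comparison, 4 testis libraries treated with full PNK and 8 cauda epididymis libraries, 4 with PNK 3 minus and 4 untreated, were also used. Nothing in the labels says that the numbers mark separate animals, so the p-values below measure the spread between libraries, which may be technical. Values of a group are given in the order acid 1, acid 2, base 1 and base 2.

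Cloning of small RNA by ligation needs a phosphate at the 5′ end and a hydroxyl at the 3′ end. MicroRNAs, which are cut by Dicer, and piRNAs, the PIWI-bound small RNAs of male germ cells, carry a 5′ phosphate already. Fragments made by other nucleases often begin with a 5′ hydroxyl or end in a 3′ or cyclic phosphate. Full kinase adds the 5′ phosphate and also removes 3′ phosphates. The form without 3′ phosphatase activity adds the 5′ phosphate only, so the comparison with untreated RNA asks which RNAs are cloned more or less readily after that single kind of repair.

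The microRNAs on which the results turn are printed first, as RefSeq gives the mature arm (build GRCm38.p6) that the authors list for testis, with the seed, bases 2 to 8, in capitals. The first group fell most, the second less, and the third was level or higher.
miR-449a-5p: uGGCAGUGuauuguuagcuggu
miR-34b-5p: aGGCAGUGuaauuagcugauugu
miR-743b-3p: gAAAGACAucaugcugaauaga
miR-881-3p: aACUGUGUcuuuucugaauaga
miR-465c-3p: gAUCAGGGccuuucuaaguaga
let-7f-5p: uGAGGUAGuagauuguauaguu
miR-30a-5p: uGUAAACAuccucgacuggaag
miR-470-5p: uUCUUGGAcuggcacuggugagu
miR-10a-5p: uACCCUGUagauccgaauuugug
miR-10b-5p: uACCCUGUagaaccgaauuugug
The first 2 share 1 seed and the last 2 another. miR-449a-5p lies at chr13:113037549-113037570 on the plus strand, miR-34b-5p at chr9:51103610-51103632 on the minus strand and miR-10b-5p at chr2:74726074-74726096 on the plus strand. miR-881-3p at chrX:66801954-66801975 and miR-470-5p at chrX:66813995-66814017 lie on the minus strand in 1 X-chromosome cluster of testis microRNAs.
The RNA with the largest rise above 100 counts per 1000000 assigned reads (CPM) was 5S rRNA, the small RNA of the large ribosomal subunit.

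The PNK 3 minus libraries held 3015871 to 3562395 assigned reads and the untreated ones 12273693 to 14664480, so depth differed with the treatment. A single read was worth 0.281 to 0.332 CPM in PNK 3 minus libraries, against 0.0682 to 0.0815 CPM in untreated libraries. In PNK 3 minus base replicate 1 the make-up stood apart from the other 3 libraries of its group. For part of the results that rest on it, values without it are given too. The testis label was held against marker microRNAs. The 16 germ cell rows summed to 1120 to 2192 CPM with PNK 3 minus and 17112 to 19996 CPM untreated, and to 2176 to 2822 CPM in untreated cauda epididymis. The 13 rows of epididymal epithelium, among them Mir10b, summed to 7619 to 22235 CPM with PNK 3 minus and 12591 to 14044 CPM untreated, and to 273689 to 382719 CPM in untreated cauda epididymis. Of these rows Mir205 and Mir200a stayed at or under 19.6 CPM in all 8 testis libraries. Mir141 reached 85.2 CPM with PNK 3 minus and 83.3 CPM untreated. Mir204 and Mir146b, also among the 13 rows, were higher in untreated testis libraries, at 111 to 124 CPM and 60.5 to 123 CPM. In untreated cauda epididymis they had 166 to 1306 CPM and 192 to 692 CPM. The part of these markers in the results below was not tested. Where testis and cauda epididymis differ in these markers, fewer cells of a type and less RNA per cell cannot be told apart in bulk libraries.

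Ribosomal fragments made up a far larger part of the reads after PNK 3 minus. The rRNA share (45S plus 5S rows) was 24.7%, 23.4%, 54.4% and 22.4% in the PNK 3 minus libraries, against 1.31%, 0.949%, 1.64% and 1.02% in the untreated ones. The groups did not overlap, and their means were 31.2 ± 15.5% and 1.23 ± 0.316% (SD, n = 4 each). piRNA fell to 72.1%, 73.6%, 43.8% and 73.8% with PNK 3 minus, against 91.4%, 90.9%, 90.2% and 90.8% untreated. MicroRNA fell to 2.59%, 2.74%, 1.34% and 3.45%, against 6.72%, 7.65%, 7.06% and 7.66% untreated. For these 3 classes the groups did not overlap, and each difference had an exact two-sided permutation p = 0.0286, the smallest that 4 against 4 libraries can give, and 0.0476 after Benjamini-Hochberg adjustment over 5 classes. The tRNA share was 0.325 ± 0.142% with PNK 3 minus and 0.528 ± 0.283% untreated (exact permutation, adjusted p = 0.321). Repeats held 0.0966 ± 0.0697% and 0.101 ± 0.00226% (adjusted p = 1, exact permutation), and the 2 groups overlapped in both classes.

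The fall of piRNA depended on what it was a share of. Among reads that were not rRNA, piRNA made up 95.7 ± 0.486% with PNK 3 minus and 92.0 ± 0.446% untreated, a difference in the other direction (exact permutation p = 0.0286, adjusted over 4 classes 0.0571). MicroRNA stayed lower on that scale, with 3.60 ± 0.625% and 7.36 ± 0.451% at the same p-values. Without PNK 3 minus base replicate 1 the rRNA share was still 22.3 percentage points higher with PNK 3 minus than without enzyme and the piRNA share 17.7 points lower.

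**Figure D1:**
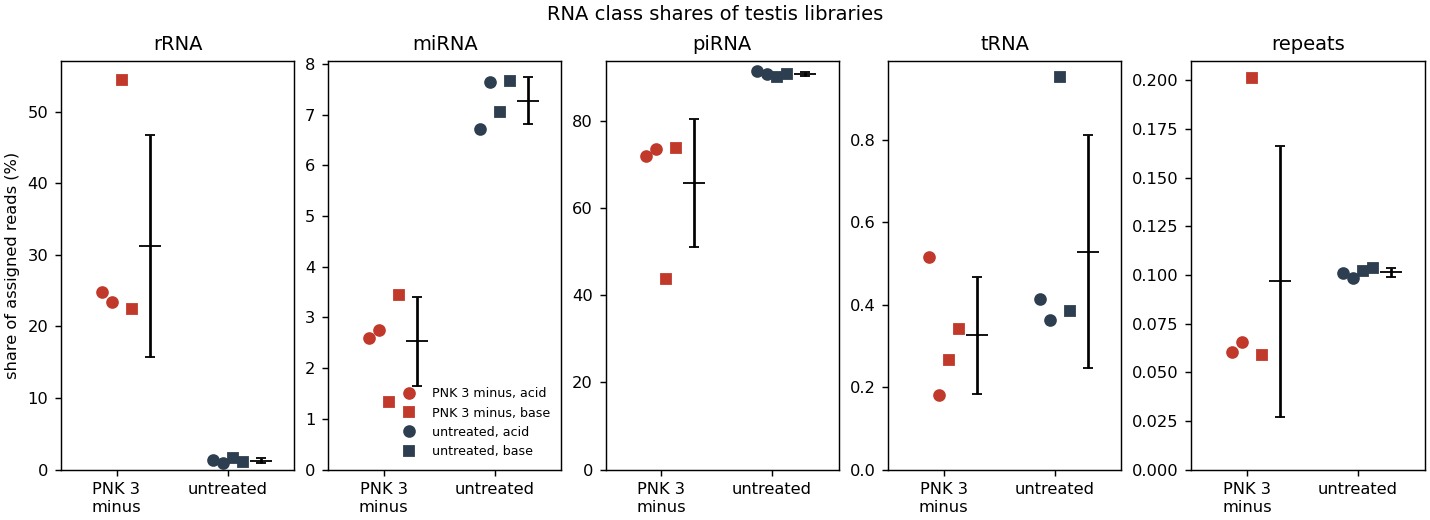
Share of assigned reads (%) in 5 RNA classes for each testis library, PNK 3 minus in red and untreated in dark blue, circles for acid and squares for base; bars are means with SD (n = 4 each). The rRNA points of PNK 3 minus lie at 22.4% to 54.4% and those of untreated libraries at 0.949% to 1.64%; base replicate 1 is the high point.

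All 4 PNK 3 minus libraries were above all 4 untreated ones in 5S, 28S, 18S and the 45S precursor row, which includes the reads of 28S, 18S and 5.8S. 5S had 123332, 128073, 211494 and 125996 CPM with PNK 3 minus, against 3312, 2050, 3112 and 2272 CPM untreated. This was a 54.8-fold ratio of means and a log2 fold change of 6.43 (SE 0.37) in the scaled fit (edgeR quasi-likelihood F test, adjusted p = 1.68e-06). 28S, the large RNA of the large subunit, had 92005, 66857, 223146 and 61520 CPM, against 5586, 4181, 7915 and 4493 CPM untreated (log2 fold change 4.99, SE 0.57, adjusted p = 9.51e-05). 18S, the RNA of the small subunit, had 24467, 23771, 25369 and 22079 CPM, against 1695, 1059, 2112 and 1139 CPM untreated (log2 fold change 4.65, SE 0.26, adjusted p = 1.68e-06). It was the most even of the rRNAs over the PNK 3 minus libraries, with 23922 ± 1392 CPM (SD, n = 4), and base replicate 1 did not stand apart in it.

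5.8S, the short RNA paired with 28S, was the exception. It had 739, 554, 1110 and 486 CPM with PNK 3 minus and 994, 697, 1205 and 724 CPM untreated, and the groups overlapped (log2 fold change 0.37, SE 0.36, adjusted p = 0.377). Per base of RNA, the 5S level was 1028, 1067, 1762 and 1050 reads per 1000000 with PNK 3 minus, against 27.6, 17.1, 25.9 and 18.9 untreated. 5S thus came to 38.9% to 56.3% of the rRNA reads with PNK 3 minus and 19.0% to 25.2% untreated, without overlap. Reads of the 45S row outside 28S, 18S and 5.8S, which cover the spacers, made up 0.672%, 1.49%, 8.26% and 1.37% of all reads with PNK 3 minus, against 0.155%, 0.150%, 0.204% and 0.152% untreated. Base replicate 1 held the high values of 5S, 28S and spacer reads.

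**Figure D2:**
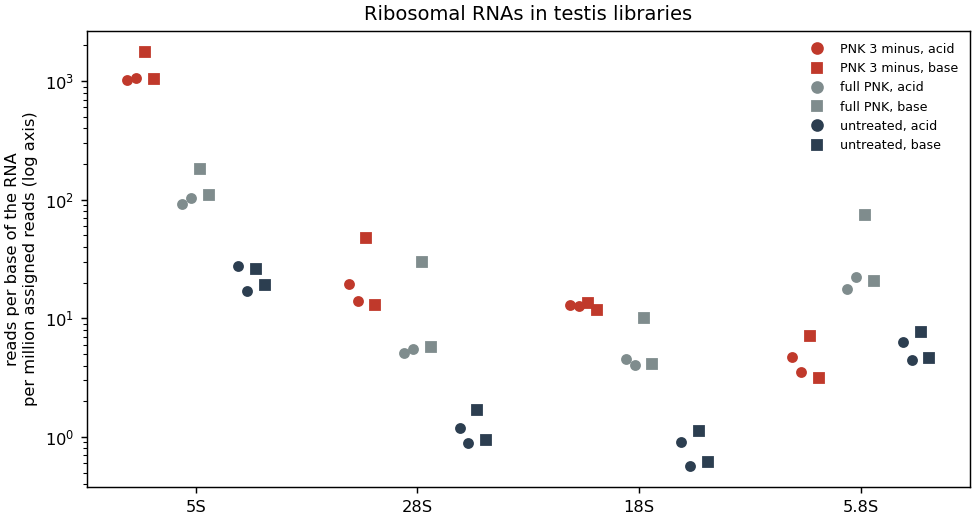
Level of 4 rRNAs per base of the RNA and 1000000 assigned reads (log axis) in each testis library, PNK 3 minus in red, full PNK in grey and untreated in dark blue. For 5S, 28S and 18S every PNK 3 minus point lies above every untreated point, while for 5.8S those 2 groups overlap at 3.12 to 7.11 and 4.47 to 7.73.

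Across the table, 869 RNAs passed the filter on low counts, and with PNK 3 minus 267 rose (30.7%) and 390 fell (44.9%), 75.6% in all, with a median log2 fold change of -0.36. In CPM the libraries of the 2 groups did not overlap in 76.2% of RNAs, 21.4% higher and 54.8% lower. The split moved with the scaling. With library totals alone 189 rose and 466 fell, and the median shifted by -0.64. With RLE scaling 320 rose and 336 fell, and the median shifted by 0.26. Under TMM, RLE, library totals and DESeq2 alike, 189 rose and 335 fell. Without PNK 3 minus base replicate 1, 367 RNAs rose and 378 fell, of 949 tested. The split was near even whichever library was left out, such as 306 and 279 without untreated acid replicate 1 and 277 and 273 without untreated base replicate 2. In these fits the median shifted by 0.22 to 0.44, so the excess of falls in the main fit was not tied to a single library. With all libraries and with each left out in turn, 235 RNAs rose and 254 fell every time.

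**Figure D3:**
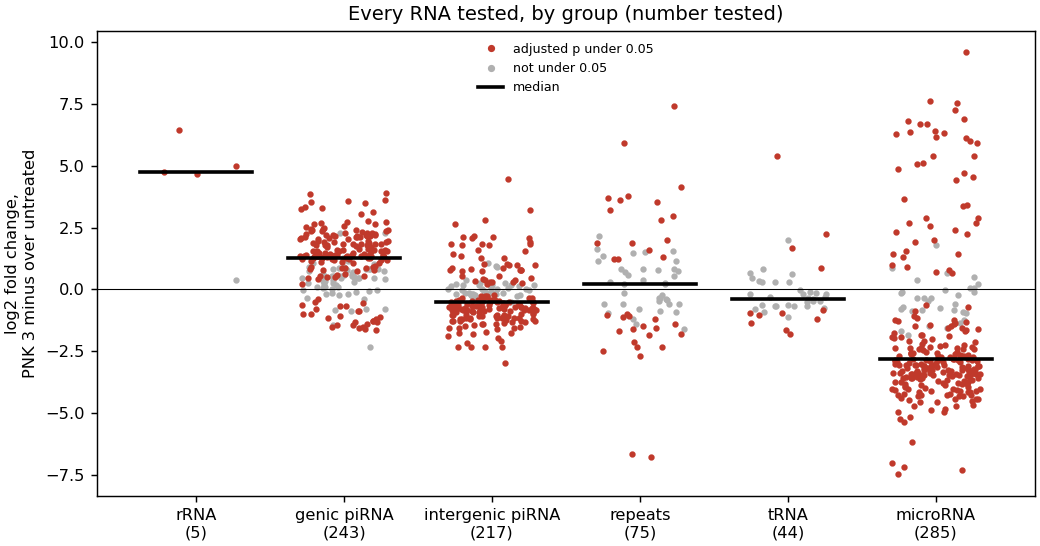
Log2 fold change of PNK 3 minus over untreated for every RNA tested, by group, with red for adjusted p under 0.05, grey for the rest and a line at the median. MicroRNAs lie mostly below 0 (median -2.81), genic piRNA rows mostly above (median 1.26), intergenic piRNA rows around -0.51, and 4 of 5 rRNA rows above 4.

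MicroRNAs were mostly lower with PNK 3 minus. Of 285 microRNA rows tested, 207 fell, 46 rose and 32 did not pass, with a median log2 fold change of -2.81 against -0.36 over all RNAs. The deepest fall among RNAs of at least 100 CPM was that of Mir449a, a microRNA of ciliated cells and meiotic germ cells. It had 8.98, 5.10, 1.18 and 8.62 CPM with PNK 3 minus, against 526, 691, 494 and 784 CPM untreated (log2 fold change -6.18, SE 0.46, adjusted p = 7.08e-06). Mir34c, of the same family and abundant in late male germ cells, had 186, 170, 116 and 325 CPM, against 8088, 9016, 9534 and 9541 CPM untreated. No PNK 3 minus library came near an untreated one, and the log2 fold change was -4.95 (SE 0.21, adjusted p = 1.22e-06). All 5 tested members of the mir-34 and mir-449 families fell (median -4.25), with 146 to 396 CPM in sum with PNK 3 minus, against 9305 to 11136 CPM untreated. Mir34b fell less, by 3.31 on the log2 scale (SE 0.17), to 41.4 ± 12.5 CPM, against 614 ± 49.9 CPM untreated.

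The X-linked cluster, whose microRNAs are expressed in testis, fell in all 20 of its tested rows (median -4.15, against -2.81 over all microRNA rows). Mir881 had 75.2, 58.9, 35.3 and 65.7 CPM with PNK 3 minus, against 2177, 2098, 2077 and 1786 CPM untreated (log2 fold change -4.53, SE 0.13, adjusted p = 2.32e-07). Mir463, Mir883a, Mir743b, Mir465, Mir465c-1 and Mir465c-2 were the others of the cluster among the 10 largest falls, with log2 fold changes of -4.86 to -4.42; the Mir465 copies are near-identical and may share reads. Mir298, an imprinted microRNA on chromosome 2, completed those 10 at -4.43. Within the cluster the fall was uneven. Mir470 had 1131, 1176, 721 and 1167 CPM with PNK 3 minus, against 2716, 2972, 2783 and 3052 CPM untreated, a log2 fold change of -0.87 (SE 0.09, adjusted p = 3.91e-05). Mir871 lay between these, with 371 ± 139 CPM and 1853 ± 278 CPM untreated (log2 fold change -1.77, SE 0.22). Of the microRNA reads, Mir470 made up 4.35 ± 0.814% with PNK 3 minus and 3.96 ± 0.0646% untreated, and Mir881 0.240 ± 0.0453% and 2.81 ± 0.381%.

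Families that are not particular to germ cells fell too, among the 207 of all 285 microRNA rows that fell (median -2.81). All 13 tested let-7 rows fell (median -3.30); let-7 is abundant in differentiated tissue, and Mirlet7f-2 had 42.2 ± 32.2 CPM with PNK 3 minus and 658 ± 80.9 CPM untreated. Of 11 rows of the mir-17-92 clusters, which act in proliferating cells, 10 fell (median -3.39), among them Mir92-1 with 45.9 ± 16.0 CPM and 649 ± 50.2 CPM untreated. All 8 rows of mir-101, mir-26 and mir-148 fell (median -3.42), with Mir148a at 137 ± 65.1 CPM and 1581 ± 96.3 CPM untreated. All 9 tested of 45 Dlk1-Dio3 rows fell (median -2.85), as did all 4 mir-29 rows (median -2.87). Of 5 epithelial mir-200 rows 1 rose and 1 fell, of 3 epididymal rows 1 rose and 2 fell, and in the mir-183 cluster and the Sfmbt2 cluster 1 of 2 tested rows fell and none rose (edgeR).

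Markers of other cells of the testis were mostly lower too, as were 207 of all 285 microRNA rows tested (median -2.81). Of 5 muscle rows 4 fell and 1 rose, and both endothelial rows fell (median -3.70). Both rows of the gonad support list, Mir202 and Mir140, fell as well (median -2.66). Only Mir202 was set as a marker of Sertoli and Leydig cells. Mir143, of smooth muscle, had 770, 822, 405 and 2228 CPM with PNK 3 minus, against 10788, 11398, 9794 and 10936 CPM untreated (log2 fold change -2.87, SE 0.39, adjusted p = 0.000281). Mir202, of Sertoli and Leydig cells, had 8.70 ± 1.17 CPM and 66.7 ± 23.5 CPM untreated (log2 fold change -2.27, SE 0.26), and Mir126a, of endothelium, 5.03 ± 2.84 CPM and 115 ± 28.3 CPM untreated (log2 fold change -3.99, SE 0.40). Of 7 blood rows tested 6 fell and 1 rose, while in the acid libraries alone 1 fell and 1 rose. The exception was Mir486, of red cells, with 251, 203, 110 and 240 CPM with PNK 3 minus, against 121, 112, 113 and 95.9 CPM untreated (log2 fold change 1.43, SE 0.17, adjusted p = 8.05e-05). Base replicate 1 was the low one and overlapped the untreated range. Mir3107 overlaps it on the opposite strand of chromosome 8, and their reads cannot be told apart here.

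A few microRNAs kept their level or rose, and they came to dominate the class. Mir10b, from the Hox clusters, had 16533, 17640, 7262 and 20920 CPM with PNK 3 minus, against 11910, 13184, 11687 and 12290 CPM untreated (log2 fold change 0.90, SE 0.18, adjusted p = 0.00213). The groups overlapped through base replicate 1, and with library totals alone the value was 0.34 and did not pass (adjusted p = 0.306). As a share of all microRNA reads, Mir10b made up 63.8%, 64.3%, 54.1% and 60.7% with PNK 3 minus, against 17.7%, 17.2%, 16.6% and 16.0% untreated, without overlap. Mir34c came to 0.785 ± 0.145% of microRNA reads, against 12.4 ± 0.759% untreated (SD, n = 4 each). Mir10a, which shares the seed of Mir10b, rose by a log2 fold change of 0.69 (SE 0.26, adjusted p = 0.0397), a call that library totals alone did not give (0.14, adjusted p = 0.724).

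Of 10 tested rows of the mir-10, mir-196, mir-99 and mir-125 families 4 rose and 3 fell, and with library totals alone 1 rose and 4 fell. Mir99b had 197, 242, 123 and 309 CPM with PNK 3 minus, against 66.1, 90.8, 83.5 and 106 CPM untreated, without overlap (log2 fold change 1.90, SE 0.22, adjusted p = 8.57e-05). Mir125a, its neighbour on chromosome 17, fell by 1.85 on the log2 scale (SE 0.22), to 24.7 ± 7.34 CPM, against 133 ± 25.2 CPM untreated. In the mir-30 family 6 of 7 rows fell (median -1.28) and Mir30d rose. With RLE, with DESeq2, in the acid or the base libraries alone and without PNK 3 minus base replicate 1, 4 were lower, and with library totals alone 6 were lower and none higher. Mir30e and Mir30f were those that lost their call, with -0.41 (adjusted p = 0.0871) and -0.36 (adjusted p = 0.0802) under RLE and -0.18 (adjusted p = 0.141) and -0.15 (adjusted p = 0.14) without base replicate 1. Both also lost it without either PNK 3 minus acid replicate and whichever untreated library was left out, such as untreated base replicate 2 (-0.20, adjusted p = 0.314, and -0.13, adjusted p = 0.394). Mir30a had 768, 803, 444 and 931 CPM, against 2705, 2721, 2445 and 2779 CPM untreated (log2 fold change -1.28, SE 0.12, adjusted p = 2.17e-05). Mir30d had 819, 1021, 431 and 1019 CPM, against 687, 832, 658 and 893 CPM untreated, with overlap (log2 fold change 0.65, SE 0.19, adjusted p = 0.0124); with library totals alone it was 0.09 (adjusted p = 0.765).

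**Figure D4:**
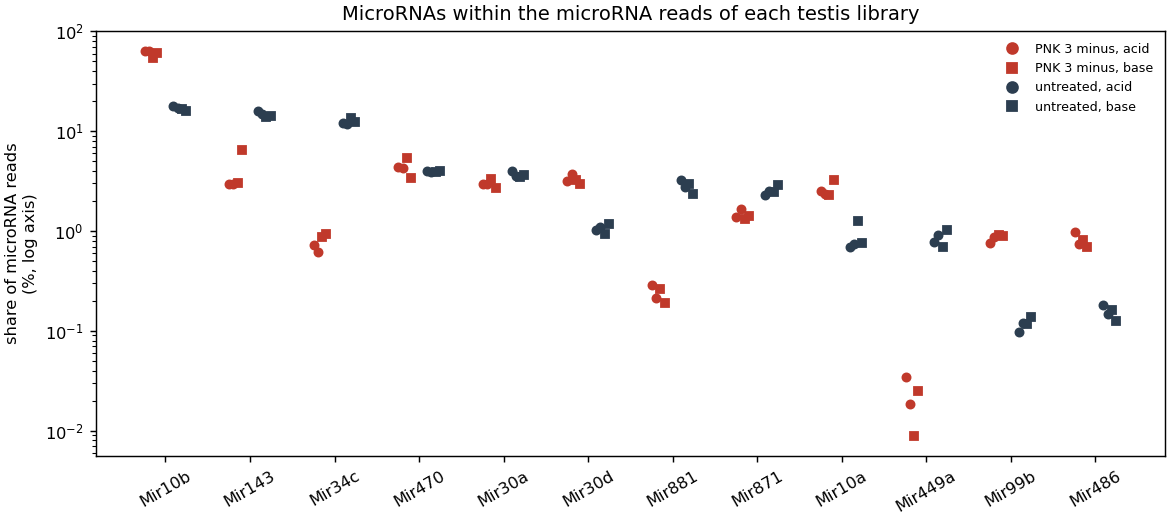
Share of all microRNA reads (%, log axis) of 12 microRNAs in each testis library, PNK 3 minus in red left of untreated in dark blue. Mir10b lies at 54.1% to 64.3% with PNK 3 minus and 16.0% to 17.7% untreated, while Mir34c, Mir881, Mir143 and Mir449a lie lower with PNK 3 minus in all 4 libraries.

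G was the most frequent last base at the upper end. Of 84 distinct mature sequences with at least 20 CPM in untreated libraries, 17 ended in G, and these had a median log2 fold change of -2.09. The 21 ending in A had -3.39, the 9 ending in C -3.43 and the 37 ending in U -3.32. Of the 12 highest fold changes 8 belonged to G-ending microRNAs, among them Mir10a, Mir10b and Mir30a, whose sequences are printed above. Mir1981, which ends in C, was second highest of all at 1.53, Mirlet7b, Mir204 and Mir470 among the 12 end in U, and G-ending sequences also reached -4.15. This grouping was chosen after the fold changes were seen, members of a family share their ends, and it is given as a description with no test.

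**Figure D5:**
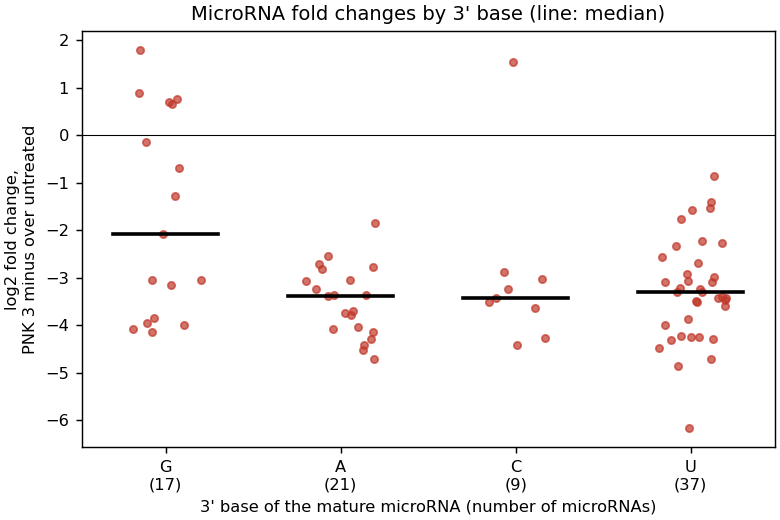
Log2 fold change of PNK 3 minus over untreated for 84 mature microRNAs by their 3′ base, with the number of microRNAs below each letter and a line at the median. The 17 that end in G reach higher (median -2.09) than the others (medians -3.43 to -3.32), and the groups overlap.

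The 46 microRNA rows that rose were mostly rare in untreated libraries. Of them 25 had under 1 CPM there. The median of the 46 rows was 7.26 CPM with PNK 3 minus and 0.689 CPM untreated, against 2.83 CPM and 36.1 CPM for the 207 that fell. An arm in the authors' testis list of mature microRNAs was found for 26.1% of them, against 76.8% of those that fell. Rows so rare untreated passed the filter on low counts only through their PNK 3 minus counts. A row as rare untreated that fell could hardly have passed it. The filter thus shaped these differences, and no conclusion about the microRNAs that rose is drawn from them. Above 100 CPM the largest rises were those of Mir2137 and Mir1264. Mir1264 had 122, 130, 62.6 and 113 CPM with PNK 3 minus, against 3.89, 4.66, 5.30 and 4.44 CPM untreated, without overlap (log2 fold change 5.11, SE 0.24, adjusted p = 1.25e-06). Mir2137 had 102 ± 33.8 CPM and 3.80 ± 2.73 CPM untreated (log2 fold change 5.38, SE 0.56). Mir5103 had 39.3, 39.9, 491 and 17.2 CPM, against 21.2, 19.4, 30.9 and 22.0 CPM untreated, with overlap (log2 fold change 2.89, SE 1.09, adjusted p = 0.0405). Without base replicate 1, the high library, its log2 fold change was 1.30 (adjusted p = 0.00833). The call was lost with library totals alone (2.13, adjusted p = 0.0558), without a filter on low counts (2.78, adjusted p = 0.146), in the base libraries alone (4.28, adjusted p = 0.0649), with the tissue number as a replicate block (2.44, adjusted p = 0.0545), with number and chemistry as pairs (1.82, adjusted p = 0.092), and without untreated base replicate 1, base replicate 2 or acid replicate 2 (adjusted p = 0.0934, 0.0934 and 0.0501).

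piRNA rows split by kind. Of 243 tested rows named for a gene, 149 rose and 27 fell (median log2 fold change 1.26). Of 217 rows named by chromosome band, called intergenic here, 47 rose and 129 fell (median -0.51). In summed level the genic rows had 39664 to 42421 CPM with PNK 3 minus, against 32682 to 34433 CPM untreated, and the intergenic rows 398556 to 695460 CPM, against 869818 to 880059 CPM. The intergenic sum was lower in all 4 PNK 3 minus libraries. The genic sum was higher in all 4, but it turned on pi-Cbl.1: the other 249 genic rows had 21775 to 30064 CPM with PNK 3 minus, against 30989 to 32797 CPM untreated. Without PNK 3 minus base replicate 1, 190 genic rows rose and 34 fell (median 1.11), and 83 intergenic rows rose and 105 fell (median -0.16). In the acid libraries alone 77 intergenic rows rose and 86 fell (median -0.09), and with RLE scaling 61 and 100 (median -0.25). With library totals alone 111 genic rows rose and 44 fell, and 20 intergenic rows rose and 157 fell. Rows that differ only in their suffix can share reads; summed per locus, 124 of 214 piRNA loci rose and 43 fell (median 0.76).

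The largest piRNA rise at 100 CPM or more was that of pi-Cbl.1. It had 19822, 17127, 9600 and 18882 CPM with PNK 3 minus, against 1635, 1656, 1693 and 1648 CPM untreated, without overlap (log2 fold change 3.87, SE 0.13, adjusted p = 3.65e-07). pi-Rab11fip4.2 had 107, 111, 242 and 102 CPM, against 22.2, 22.0, 25.9 and 22.3 CPM untreated (log2 fold change 3.26, SE 0.40, adjusted p = 0.000108), with base replicate 1 the high one. The most abundant genic row untreated, pi-Gm5878.1, had 2304 ± 655 CPM and 4946 ± 151 CPM (log2 fold change -0.53, SE 0.10, adjusted p = 0.00187). That call was lost with RLE scaling (-0.25, adjusted p = 0.169), with DESeq2 (-0.25, adjusted p = 0.211), and in the acid and the base libraries taken alone. It was also lost without PNK 3 minus base replicate 1 (-0.05, adjusted p = 0.518) and without either PNK 3 minus acid replicate (adjusted p = 0.41 and 0.362). The same held whichever untreated library was left out (adjusted p = 0.372 to 0.53). The most abundant of the clusters untreated, 18-qE1-36451.1, had 40101, 39928, 21059 and 33616 CPM with PNK 3 minus, against 41215, 40989, 40421 and 40890 CPM untreated, lower in CPM without overlap but higher in the scaled fit (log2 fold change 0.29, SE 0.10, adjusted p = 0.0266). With library totals alone it was at -0.31 (adjusted p = 0.195), and in the base libraries alone at 0.11 (adjusted p = 0.615). Of the other abundant clusters, 9-qC-31469.1 had 22415 ± 5437 CPM and 37573 ± 364 CPM untreated (log2 fold change -0.17, SE 0.09, adjusted p = 0.121). 17-qA3.3-27363.1 had 23135 ± 4850 CPM and 33840 ± 185 CPM (log2 fold change 0.04, SE 0.07, adjusted p = 0.63), and 6-qF3-28913.1 had 22560 ± 5509 CPM and 32260 ± 151 CPM (log2 fold change 0.07, SE 0.09, adjusted p = 0.512). These last 2 fell when scaled by library totals alone, by 0.56 and 0.52 on the log2 scale (adjusted p = 0.0218 and 0.045), and 9-qC-31469.1 rose by 0.28 without base replicate 1 (adjusted p = 6.07e-05), so no direction is given for these 4.

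tRNA fragments had no clear direction against untreated RNA. Of 44 isoacceptors tested, 4 rose and 8 fell (median log2 fold change -0.37, as over all RNAs at -0.36). With RLE scaling 6 rose and 4 fell, with library totals alone 2 and 14, in the acid libraries alone 10 and 3, and without PNK 3 minus base replicate 1 6 and 6 of 46 (median 0.04). None of the 9 isoacceptors whose 5′ fragments are abundant in sperm passed with all 8 libraries (edgeR; median -0.31); the acid libraries alone gave 1 higher and 1 lower, and leaving out base replicate 1 gave 1 lower. Gly-GCC had 1477, 347, 373 and 828 CPM with PNK 3 minus, against 537, 482, 2714 and 590 CPM untreated, and Val-CAC 858, 253, 140 and 731 CPM, against 847, 746, 1660 and 857 CPM. Both groups were wide and overlapped. The selenocysteine tRNA SeC(e)-TCA rose the most, with 82.0, 80.4, 831 and 82.9 CPM, against 4.02, 3.42, 29.7 and 3.43 CPM untreated (log2 fold change 5.39, SE 0.99, adjusted p = 0.00144). All PNK 3 minus libraries were above all untreated ones, and base replicate 1 was the high library of either group. Without PNK 3 minus base replicate 1 the log2 fold change was 4.43 (adjusted p = 0.00876).

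Among repeats 17 of 75 tested rows rose and 19 fell (median log2 fold change 0.20). RLTR4I_MM, an internal part of a retroviral element, had 129, 117, 356 and 110 CPM with PNK 3 minus, against 97.9, 79.0, 89.3 and 104 CPM untreated (edgeR, log2 fold change 1.57, SE 0.46, adjusted p = 0.0135). The groups did not overlap, and PNK 3 minus base replicate 1 was the high library. MMERVK9E_I had 21.1, 36.2, 390 and 10.3 CPM, against 85.4, 61.0, 67.3 and 76.5 CPM untreated. The log2 fold change was 0.84 (adjusted p = 0.538) with base replicate 1 and -0.93 (adjusted p = 0.0421) without it. RLTR6I_MM had 123 ± 36.4 CPM and 163 ± 6.07 CPM untreated, and ERVB4_2-I_MM 57.3 ± 12.4 CPM and 111 ± 2.41 CPM; neither passed (adjusted p = 0.478 and 0.0727).

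Whether the effect differed between the acid and the base libraries could hardly be told. No RNA of 907 passed the edgeR test of the interaction (0.0% called), and 31 had an unadjusted p under 0.05. Without PNK 3 minus base replicate 2, which leaves base replicate 1 alone in its arm and assumed to vary like the other libraries, 214 were higher in acid and 152 lower. Without PNK 3 minus base replicate 1 only 1 passed, lower in acid. The acid libraries alone gave 331 rises and 308 falls, and the base libraries alone 184 and 270.

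The full kinase, applied to 4 further testis libraries, gave a different picture. Of 782 RNAs tested, 308 were higher (39.4%) and 294 lower (37.6%) with PNK 3 minus than with full PNK, 77.0% in all. 5S had 123332 to 211494 CPM with PNK 3 minus, against 10969, 12410, 21809 and 13068 CPM with full PNK (log2 fold change 4.22, SE 0.33, adjusted p = 1.69e-05), and 18S was higher as well (2.05, SE 0.38, adjusted p = 0.0015). 5.8S went the other way, with 486 to 1110 CPM, against 2776, 3476, 11582 and 3241 CPM with full PNK (log2 fold change -1.89, SE 0.57, adjusted p = 0.0178). The enzymes did not overlap in 5S, 18S and 5.8S, and overlapped in 28S, where full PNK base replicate 1 had 142416 CPM. Scaled by library totals alone, 155 RNAs were higher and 412 lower.

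tRNA fragments were mostly lower with PNK 3 minus than with full PNK. Of 44 isoacceptors tested 28 were lower and 1 higher (median log2 fold change -1.67). Val-CAC had 140 to 858 CPM with PNK 3 minus, against 2925, 5352, 51401 and 8178 CPM with full PNK (log2 fold change -3.75, SE 1.21, adjusted p = 0.0244). Leu-CAA had 2.35 to 6.30 CPM, against 547, 322, 978 and 355 CPM (log2 fold change -6.29, SE 0.52, adjusted p = 2.12e-05), Leu-CAG 14.7 to 66.0 CPM, against 1522 to 6388 CPM (-5.37, SE 0.84), and Val-TAC 0.849 to 8.70 CPM, against 74.5 to 2266 CPM (-5.68, SE 1.44, adjusted p = 0.00891). MicroRNAs were mostly lower too, with 167 of 225 lower and 31 higher; Mir34c had 116 to 325 CPM, against 4319 to 5485 CPM with full PNK (log2 fold change -3.77, SE 0.26). Mir10b was higher with PNK 3 minus (2.05, SE 0.38, adjusted p = 0.00158), and so were Mir1264 (5.76, SE 0.34) and pi-Cbl.1 (4.22, SE 0.17), which had 0 to 3.94 CPM and 1216 to 1752 CPM with full PNK. Full PNK base replicate 2 held only 228043 reads, and full PNK base replicate 1 held the highest rRNA and Val-CAC values; without the first 294 were higher and 286 lower, and without the second 215 and 283.

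Against the same treatment of the cauda epididymis, where sperm are stored, the difference depended on the scaling. Of 942 RNAs, 439 had a higher log2 effect in testis (46.6%) and 53 a lower one (5.63%) with TMM, 52.2% in all, while library totals alone gave 92 and 542. The median difference was 1.58 with TMM, and the TMM values below stand against it. Leaving out any testis library brought the TMM median to 0.06 to 0.19 and the calls near even, such as 279 higher and 252 lower without untreated acid replicate 1. Under TMM, RLE and library totals alike, 92 were higher and 53 lower. 18S was among the higher ones, with 22079 to 25369 CPM with PNK 3 minus and 1059 to 2112 CPM untreated in testis, and 30134 to 50694 CPM and 10849 to 14189 CPM in epididymis; the difference of the log2 effects was 6.52 (SE 0.64, adjusted p = 1.97e-07) with TMM and 2.43 (adjusted p = 1.58e-07) with library totals. 28S and 45S differed in the same direction, and 5S did not pass with library totals alone (2.72, adjusted p = 0.0688). The epididymal 5S level with PNK 3 minus was 1.88% and 2.53% of reads in the acid libraries and 31.9% and 42.5% in the base libraries, against 0.678% to 1.30% untreated. In testis the 5S share was 12.3% and 12.8% in acid and 21.1% and 12.6% in base.

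The largest differences of effect at 100 CPM or more concerned RNAs whose levels differ between the tissues. Mir205, of epithelium, had 2.94 to 17.6 CPM with PNK 3 minus and 0.682 to 3.91 CPM untreated in testis, against 18.3 to 112 CPM and 2331 to 3730 CPM in epididymis (difference 10.87, adjusted p = 1.69e-07; 10.30 with RLE and 7.15 with library totals). Mir141 and Mir196b, likewise epithelial or Hox-linked, differed by 9.56 and 8.95 with TMM, by 8.97 and 8.14 with RLE and by 5.71 and 5.001 with library totals. Mir196b was near the floor in testis, at 0.842 to 3.32 CPM with PNK 3 minus and 1.36 to 2.12 CPM untreated. The piRNA row pi-Nr2c2.1 had 183 to 388 CPM with PNK 3 minus and 917 to 942 CPM untreated in testis, against 259 to 1130 CPM and 17.3 to 23.8 CPM in epididymis (difference -2.74, SE 0.45, adjusted p = 3.56e-05; -3.79 with RLE and -6.97 with library totals). 1-qC1.3-637.2 and pi-Zdhhc23.1 differed by -3.32 and -3.10 with TMM, by -4.20 and -4.24 with RLE and by -7.51 and -7.42 with library totals. In untreated epididymis they were near the floor, at 0.494 to 1.89 CPM and 0.226 to 1.14 CPM. A single read was worth 0.0946 to 0.247 CPM there. PNK 3 minus libraries of the epididymis held 536488 to 1916592 reads.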

How the data were processed

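Counts came from the authors' deposited tables, which per the file headers hold unscaled read counts per RNA for rRNA, tRNA, microRNA, piRNA and repeats (2343 rows for testis). Per the submitters' processing notes the build was mm10; no aligner or counter is given in the sources used here, nor whether strand was used. From a further deposited table only the arm of each microRNA and its start position were used; 154 of 163 starts equalled RefSeq's.

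The 45S row contains the 28S, 18S and 5.8S reads, so totals were summed without those 3 rows; CPM is a count per 1000000 of that total. tRNA copies were summed to 53 isoacceptors. The tests were run in R 4.3.3 with limma 3.58.1 and edgeR 4.0.16, using its default filter, TMM scaling, a term for acid or base, robust quasi-likelihood F tests and Benjamini-Hochberg adjustment at 0.05; standard errors are the log2 fold change over the root of F. Shares were compared by exact permutation tests. The main fit was also run on simulated counts with equal numbers of rises and falls. These lack the shift in rRNA share seen here, so no conclusion about the scaling is drawn from them. DESeq2 1.42.0 was an alternative, as were other scalings, filters, blocks and left-out libraries; the cauda epididymis table was joined by row for the tissue comparison. Tables and exact tests used scipy 1.17.1, pandas 2.3.3 and numpy 2.4.6 under Python 3.11.15.

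The members and the 23 lists were chosen with earlier results of these data known; list patterns were corrected after seeing the row names, and rows annotated on other chromosomes left the cluster lists. Named are RNAs that passed with at least 100 CPM in the higher group (the 10 largest rises and falls), the 4 most abundant of each list and all rRNA rows, plus for the other comparisons the 3 largest differences each way; the text gives values for part of these. Replicates were not duplicates, with a chi-square per degree of freedom of at least 7.58 between any pair. Deviations of libraries with the same number and chemistry correlated at -0.0394 to 0.221 over 603 RNAs, which cannot show whether they share a source of RNA. The labels do not say that the numbers mark animals, so the main fit left the libraries unpaired, and paired fits were run as alternatives. Standard errors and SDs cover the spread between libraries, and PCR copies cannot be told from molecules in these counts.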

Additional observations from a re-analysis of the deposited data

Results flagged for a closer look

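Of 134 groups of 4 libraries looked at (5 class shares and the RNAs given with values), 23 held a library whose gap to the nearest other, over the whole range, was above Dixon's 95% critical value; chance gives about 1 in 20. In 14 of them it was PNK 3 minus base replicate 1 and in 7 untreated base replicate 1. In the PNK 3 minus group, base replicate 1 stood apart in the shares of rRNA (0.927, at 54.4%), piRNA (0.945, low, at 43.8%) and repeats (0.952, at 0.201%). It was high in 5S (0.946), 45S (0.889), SeC(e)-TCA (0.997), pi-Rab11fip4.2 (0.935), Mir5103 (0.952), pi-Nr2c2.1 (0.914), pi-Zdhhc23.1 (0.919), RLTR4I_MM (0.923) and MMERVK9E_I (0.932), and low in Mir470 (0.9) and 9-qC-31469.1 (0.907). Untreated base replicate 1 was high in the tRNA share (0.913, at 0.952%), Gly-GCC (0.952), Val-CAC (0.879), Glu-CTC (0.977), SeC(e)-TCA (0.977), pi-Rab11fip4.2 (0.915) and Mir141 (0.966). Untreated acid replicate 1 was low in Mir465c-2 (0.845) and pi-Nr2c2.1 (0.83).

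The effect of PNK 3 minus differed between testis and cauda epididymis under TMM, RLE and library totals for 18S (6.517 on the log2 scale with TMM), 28S (5.604), 45S (5.823), Mir205 (10.87), Mir141 (9.563) and Mir196b (8.955), higher in testis, and for 1-qC1.3-637.2 (-3.316), pi-Zdhhc23.1 (-3.1) and pi-Nr2c2.1 (-2.745), lower in testis (edgeR interaction test).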

How the results depend on the processing

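Of 100 named RNAs, 77 passed the test and 53 of these kept their direction and call in every alternative. The number of falls was 390 with all 869 RNAs, 208 with at least 10 counts in every library, 233 with all 20 testis libraries in the fit and 246 with piRNA rows summed per locus. Against full PNK, library totals alone gave 155 higher. For testis against epididymis, RLE gave 199 lower and library totals 92 higher and 542 lower. Leaving out 1 library at a time gave 263 to 456 higher and 38 to 328 lower. The median was 1.58 to 1.75 without epididymal PNK 3 minus acid replicate 2 or base replicate 1 or untreated base replicate 2. Leaving out any other library gave a median of 0.06 to 0.31 and calls closer to even. For acid against base, leaving out 1 library gave 0 to 366 calls in all, 0 to 214 higher and 0 to 152 lower. Leaving out 1 library, the difference ran over 22.3 to 32.9 points for the class share, rRNA, over -5.05 to -4.35 for the class share, miRNA, and over -27.7 to -17.7 for the class share, piRNA, at exact p = 0.0571 where 3 libraries faced 4, the smallest possible there. Among reads that are not rRNA they were -3.76 for microRNA and 3.74 for piRNA (exact permutation, adjusted p = 0.0571). With library totals alone 18-qE1-36451.1 was at -0.31, 17-qA3.3-27363.1 at -0.56 and 6-qF3-28913.1 at -0.52. In acid libraries alone 9-qC-31469.1 was at 0.36, and without 1 library at a time it ran over -0.034 to 0.29, and MMERVK9E_I over -0.93 to 1.596. The cause of these changes was not tested.

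Libraries of the same number and chemistry did not deviate together in every pair (correlations -0.0394, 0.221, 0.0188 and 0.148). Of 4 PNK 3 minus libraries 1 correlated best with its own number. With so few libraries this cannot show whether those of the same number share a source of RNA. With the tissue number as a replicate block 256 RNAs rose and 411 fell, and with number and chemistry as pairs 248 and 397. The tissue difference under a block gave 288 higher and 274 lower. The class differences of 29.99 points for rRNA, -4.74 for microRNA and -25.0 for piRNA had exact p = 0.125 over pairs and 0.0556 within acid and base, the smallest those regroupings allow.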
